A study of Homo sapiens with 4 samples.

Results

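The cytosolic ribosomal protein genes were the 90 protein-coding genes of GENCODE release 29 whose symbol begins with RPL, RPS or RPLP and a digit, without the RPS6K kinases. A deposited cassette-exon event was taken when its skipped exon matched an exon of such a gene on the same strand, or when both flanking exons did. This gave 132 of the 45977 events listed for both groups, 129 through the skipped exon and 3 through the flanking exons alone. The events lay in 55 genes. The other 35 genes, among them RPL3, RPL7, RPL11 and RPL19, had no event listed for both groups.

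The cells were MDA-LM2, a human breast cancer line derived from MDA-MB-231 by selecting for metastasis to the lung. The study asked what transfection of an SSE mimetic RNA does to the transcriptome. One group received the SSE mimetic and the other a scrambled oligo, with 2 samples each and 4 in all. Both groups were transfected with Lipofectamine, total RNA was DNase-treated, and ScriptSeq v2 was the library kit; the labels give neither the oligo sequences nor whether a group's samples were separate cultures. The groups are called SSE mimetic cells and scrambled cells below.

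Each group is deposited as 1 summary, and how its samples were combined is not given in the sources used here. There is thus no value per sample, no spread between replicates and no test across samples. The quantity throughout is Ψ, the authors' estimate of the fraction of transcripts that keep an exon, with its 95% credible interval. Each event sets 1 exon form against its skipping alone, so Ψ does not divide transcripts among overlapping forms of an exon. In the line's marker check, 7 of 10 genes of mesenchymal-like basal breast cells reached 10 isoform-specific reads in both groups, and the list as a whole had 2514 reads in SSE mimetic cells and 20850 in scrambled cells. Of 10 luminal or epithelial-like genes 3 did, and the list as a whole had 198 reads in SSE mimetic cells and 642 in scrambled cells. Of 5 blood genes 1 did, with 19 reads in SSE mimetic cells and 26 in scrambled cells. VIM, CAV1 and MSN had no cassette event, so the check did not reach them.

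Ribosomal proteins form, with the ribosomal RNAs, the small subunit that decodes messenger RNA, the large subunit that joins amino acids, and a flexible stalk of acidic proteins that recruits elongation factors. Their genes are among the most highly transcribed of growing cells, have many processed pseudogenes, carry a terminal oligopyrimidine start that couples their translation to growth signals, and often host small nucleolar RNAs in their introns. Several make a second transcript with an early stop codon, which nonsense-mediated decay destroys; in human cells RPL3 and RPL12 proteins favour such splicing of their own transcripts.

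The exons on which the results turn are shown here, read 5′ to 3′ from GENCODE release 29 transcripts (GRCh38). The first set shows where a longer and a shorter form of 1 exon part. In RPL9, RPS3, RPS3A and RPLP0 the forms share their downstream end and differ in the splice acceptor. Lower case marks the extension that the longer form alone holds and capitals mark bases of the shorter form; the extension ended in AG in each case. The windows lie at chr4:39458431-39458460 (minus strand, RPL9), chr11:75402304-75402446 (plus strand, RPS3), chr4:151100465-151100494 (plus strand, RPS3A) and chr12:120198554-120198739 (minus strand, RPLP0).
RPL9 inner splice acceptor: ccccagtgtttgtgtttcagAATGAAGACT
RPS3 143-nt form: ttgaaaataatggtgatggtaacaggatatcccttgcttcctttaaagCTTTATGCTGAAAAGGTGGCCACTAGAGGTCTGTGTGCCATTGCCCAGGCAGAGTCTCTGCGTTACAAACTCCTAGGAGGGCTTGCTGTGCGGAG
RPS3A inner splice acceptor: agcatcttcttaaaatccagGGTTGATCCA
RPLP0 186-nt form: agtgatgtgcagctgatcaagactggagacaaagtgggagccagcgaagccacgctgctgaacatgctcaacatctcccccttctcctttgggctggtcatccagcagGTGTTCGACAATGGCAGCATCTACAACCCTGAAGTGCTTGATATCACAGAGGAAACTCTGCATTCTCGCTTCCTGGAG

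The second set shows exons that bring a stop codon, in capitals, into the reading frame. Those of RPS24, a small-subunit protein with alternative last coding exons, lie at chr10:78037965-78037982 (18 nt), chr10:78040204-78040225 (22 nt) and chr10:78040201-78040225 (25 nt) on the plus strand. That of RPS9, a small-subunit protein near the messenger RNA entry, is the start of a 172-nt exon at chr19:54206553-54206724 on the plus strand, where 10 coding bases precede the stop.
RPS24 18-nt exon: aaaTGAagtgtctagcag
RPS24 22-nt exon: TGAgctggagattggatcacag
RPS24 25-nt exon: cagTGAgctggagattggatcacag
RPS9 172-nt exon, first 30 bases: ccctcggaggTGAtgggtgtgaactcaccc

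The exons of ribosomal protein genes were mostly either kept or left out almost completely, in both groups alike. After events with the same skipped exon were reduced to the best-covered one, 122 exons remained, and 109 of them, in 49 genes, had 10 or more isoform-specific reads (inclusion plus skipping reads) in both groups and were tested. Of these, 49 (45.0%) had Ψ of at least 0.9 in both groups, against 1811 of all 8228 tested exons (22.0%), and 34 (31.2%) had Ψ of at most 0.1 in both, against 691 (8.4%). The remaining 26 ribosomal exons (23.9%) lay between, against 5726 of all tested exons (69.6%). Ribosomal exons also had more reads, a median of 128 isoform-specific reads in SSE mimetic cells against 19 over all tested exons. The shares were not compared at equal depth.

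No tested exon of a ribosomal protein gene was called higher in SSE mimetic cells and 4 were called lower, out of 109. A call needed a Bayes factor from the authors of 10 or more and a difference in Ψ of 0.1 or more. Over all tested exons, 3.1% were called higher (255) and 0.887% lower (73), 3.99% in either direction. The other 105 ribosomal exons were not called. The median difference in Ψ, SSE mimetic minus scrambled, was -0.01 over the ribosomal exons (quartiles -0.03 and 0.01), against -0.03 over all tested exons (quartiles -0.09 and 0.03). The median size of the difference was 0.01, against 0.07 over all tested exons, which had fewer reads. With at least 100 isoform-specific reads in SSE mimetic cells it was 0.01 over ribosomal exons and 0.02 over other exons. With at least 200 it was 0.01 in both. A difference of at least 0.1 in either direction was seen in 14 ribosomal exons (12.8%), against 3036 of all tested exons (36.9%). These last shares were not compared at equal depth. In Fisher's exact test of inclusion against skipping reads (two-sided, Benjamini-Hochberg adjusted), which compares these libraries and not the conditions, no ribosomal exon had an adjusted p under 0.05, against 83 (1.01%) of all. Without adjustment 11 ribosomal exons had p under 0.05 (10.1%), against 453 of all (5.51%). The 11 lay in 8 genes and include forms of 1 exon with the same skipping reads. The inclusion share was larger in SSE mimetic cells for 9 and smaller for 2; directions were not counted over all. Exons with no skipping read in either group cannot differ in this test: 46 ribosomal exons (42.2%) and 4509 of all (54.8%). The shares under 0.05 were not compared at equal depth.

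**Figure D1:**
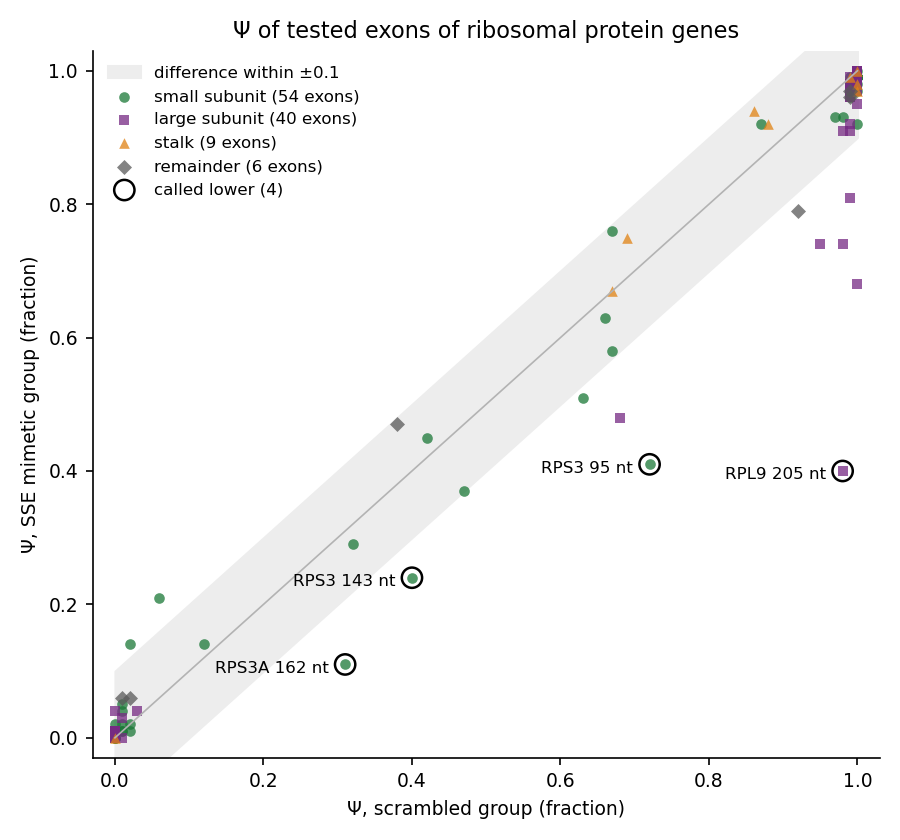
Ψ of each of the 109 tested exons in SSE mimetic cells (vertical axis, fraction) against the scrambled group (horizontal axis, fraction), by subunit, with the 4 called exons ringed. Most points lie in the lower left and upper right corners, and the called exons lie below the band of differences within 0.1, at 0.11 to 0.41 in SSE mimetic cells and 0.31 to 0.98 in scrambled cells.

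In the small subunit, 54 exons of 16 genes were tested, and 3 were called lower, in 2 genes. RPS3 is a protein of the messenger RNA entry site that also has a role in DNA repair. Its 95-nt coding exon at chr11:75402352-75402446, which is part of the principal transcript, had a Ψ of 0.41 (0.29 to 0.54) in SSE mimetic cells and 0.72 (0.63 to 0.81) in scrambled cells, a difference of -0.31 with a Bayes factor of 148.7 in the authors' deposited table. The 143-nt form, which adds the 48-nt extension printed above, had 0.24 (0.17 to 0.32) in SSE mimetic cells and 0.40 (0.35 to 0.46) in scrambled cells, with a difference of -0.16 and a Bayes factor of 26.1 in the authors' deposited table. The intervals of the groups did not overlap for either form.

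No read crossed the skipping junction of either RPS3 form in either group. The 95-nt form had 50 inclusion reads and 278 shared reads (reads that match both isoforms) in SSE mimetic cells, against 328 inclusion and 988 shared reads in scrambled cells. The 143-nt form had 44 inclusion reads in SSE mimetic cells and 272 in scrambled cells with the same shared reads, so the calls rest on shared reads per inclusion read, not on reads that join the neighbouring exons. These ratios were 5.56 in SSE mimetic cells and 3.01 in scrambled cells for the 95-nt form. A retained-intron form of 807 nt that ends at the same base had a Ψ of 0.45 in SSE mimetic cells and 0.42 in scrambled cells, from 555 inclusion reads in SSE mimetic cells and 2174 in scrambled cells. The other RPS3 exons were not called; the 154-nt form of the exon downstream, in a decay transcript, had 0.76 in SSE mimetic cells and 0.67 in scrambled cells.

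RPS3A, a small-subunit protein at the platform side that binds initiation factors, had a called form of 162 nt at chr4:151100427-151100588, partly coding and partly untranslated. Its Ψ was 0.11 (0.07 to 0.15) in SSE mimetic cells and 0.31 (0.29 to 0.33) in scrambled cells, a difference of -0.20 with a Bayes factor at the program's cap of 1e12 in the authors' deposited table. It rested on 31 inclusion, 2 skipping and 502 shared reads in SSE mimetic cells, against 880, 1 and 4855 in scrambled cells. The 104-nt coding form that shares its downstream end was kept almost completely, at 0.99 in SSE mimetic cells and 1.00 in scrambled cells, from 760 inclusion reads in SSE mimetic cells and 6224 in scrambled cells. The forms differ by the 58-nt extension that ends in the acceptor window shown above. With the read density of the flanking introns subtracted in a recomputed 2-isoform likelihood, the difference of the 162-nt form was -0.117 and still called. Its recomputed Ψ was then 0.0053 in SSE mimetic cells and 0.122 in scrambled cells. No inclusion read was left in SSE mimetic cells, so the form stayed in the comparison there through its 2 skipping reads alone. SNORD73B, a small nucleolar RNA, lies in a flanking intron of both forms.

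Of the next RPS3A exon, 3 nested forms were tested. The 188-nt coding form had the most reads of any small-subunit exon, with 960 inclusion reads in SSE mimetic cells and 10226 in scrambled cells, and a Ψ of 1.00 in both. The 38-nt form, inside it, had 0.92 in SSE mimetic cells and 1.00 in scrambled cells, from 79 inclusion reads in SSE mimetic cells and 2463 in scrambled cells. RPS3A thus held both the called 162-nt form and the exon whose reads differed most between the groups.

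RPL9, a large-subunit protein near the factor-binding region, had the largest difference of all the ribosomal exons. Of 40 large-subunit exons tested in 27 genes it held the only one called. The form of 205 nt at chr4:39458394-39458598 had a Ψ of 0.40 (0.25 to 0.59) in SSE mimetic cells and 0.98 (0.94 to 1.00) in scrambled cells, a difference of -0.58 with a Bayes factor at the cap of 1e12 in the authors' deposited table. It had 32 inclusion and 42 shared reads in SSE mimetic cells, against 586 and 183 in scrambled cells, and no skipping read in either. After the intron read density was subtracted, no isoform-specific read of this form was left in SSE mimetic cells and the call was lost.

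The 47-nt form of the same RPL9 exon holds the start codon, which lies 1 base inside the capitals of the RPL9 window above. It had a Ψ of 0.95 (0.79 to 0.99) in SSE mimetic cells and 1.00 (0.99 to 1.00) in scrambled cells, from 42 inclusion reads in SSE mimetic cells and 827 in scrambled cells. A 48-nt form of a noncoding transcript had 0.68 (0.38 to 0.95) in SSE mimetic cells and 1.00 (0.99 to 1.00) in scrambled cells and was not called. All 3 forms count the same shared reads, 42 in SSE mimetic cells and 183 in scrambled cells, so their values are not independent. Each form was set against skipping alone, so these Ψ values are not the fractions of transcripts that use each form. An exon of LIAS, the lipoic acid synthase gene on the opposite strand, overlaps the 205-nt form and the upstream flanking exon, and whether reads were assigned by strand is not given in the sources used here; its part in the result was not tested.

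**Figure D2:**
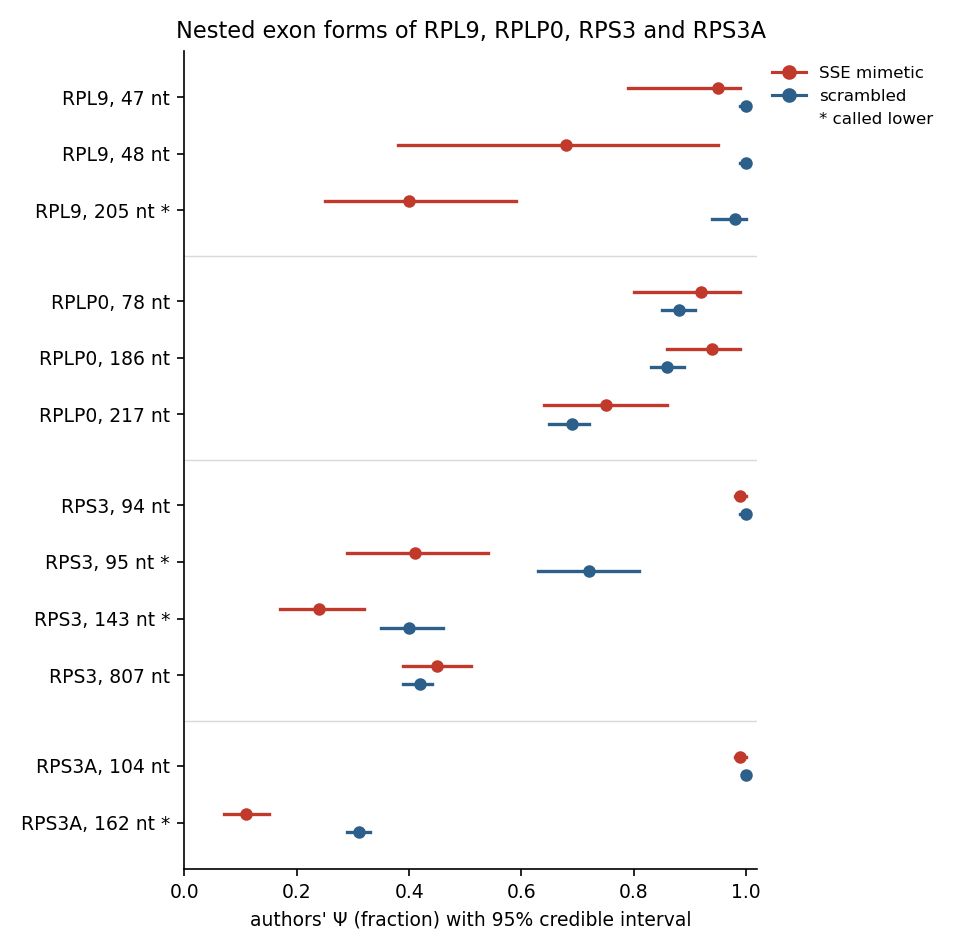
Ψ with its 95% credible interval (horizontal axis, fraction) in SSE mimetic cells (red, upper) and the scrambled group (blue, lower) for the nested or overlapping forms of an exon of RPL9, RPLP0, RPS3 and RPS3A; an asterisk marks the called forms. The 47-nt form of RPL9 and the 104-nt form of RPS3A lie at 0.95 to 1.00 in both groups while the called long forms lie lower in SSE mimetic cells, and the RPLP0 forms overlap between groups.

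**Figure D3:**
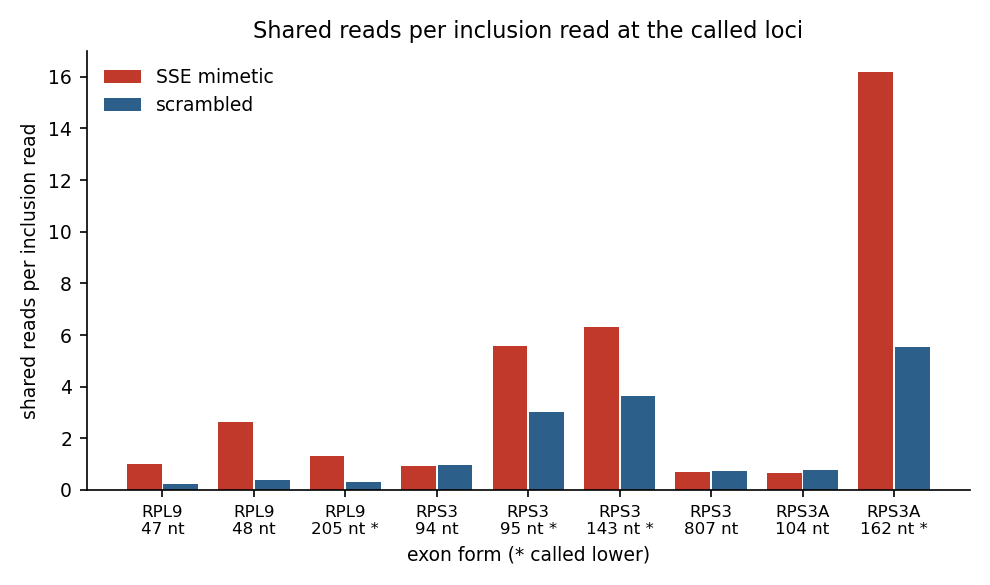
Shared reads per inclusion read (vertical axis) for each form at the called loci, with SSE mimetic cells in red to the left and the scrambled group in blue to the right; an asterisk marks the called forms. The called forms have more shared reads per inclusion read in SSE mimetic cells, as for the RPS3A 162-nt form with 16.2 in SSE mimetic cells and 5.52 in scrambled cells. This is not particular to them: the uncalled RPL9 forms have 1.0 and 0.221 (47 nt) and 2.62 and 0.397 (48 nt), in the same order of groups. The uncalled RPS3 forms of 94 and 807 nt and the RPS3A 104-nt form have fewer in SSE mimetic cells.

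The RPS3 143-nt form lost its call when scrambled reads were scaled down to the depth of SSE mimetic cells. The 4 called exons had 31 to 50 inclusion reads in SSE mimetic cells, fewer than the median of 128 isoform-specific reads per ribosomal exon. Among the 61 ribosomal exons with at least 100 isoform-specific reads in SSE mimetic cells, none was called; of the 420 other tested exons above that minimum, 30 were called (7.14%). All 4 lay in a locus with several tested forms: 22 of 72 loci had more than 1 tested form and held 59 of the tested exons. In the 50 exons with 1 tested form, no call was made. Of the 29 tested exons with a small nucleolar RNA in a flanking intron, 1 was called lower, and of the 80 without, 3 were.

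Reads of ribosomal exons can also match pseudogenes and other genes. Of 101 tested exons of at least 30 nt with a sequence, 26 had no 30-base window in a transcript of another gene and 19 had every window there. Every window of the RPL9 47-nt form and of the RPS3A 104-nt form was found in other genes, all of them pseudogenes (4 and 29 genes). For the long forms the share was 11.4% in RPL9 205 nt and 56.4% in RPS3A 162 nt, and for RPS3 it was 71.2% in the 95-nt form and 41.2% in the 143-nt form. Some exons named below matched mostly genes that are not pseudogenes. In the RPS18 158-nt exon 34.9% of windows occurred elsewhere, in 1370 genes, 48 of them pseudogenes. In the RPS15A 97-nt exon 58.8% did, in 760 genes, 28 of them pseudogenes. How the authors placed reads with several matches is not given in the sources used here, so levels of such exons are uncertain.

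Among the tested ribosomal exons RPS9 and RPS24 had the largest positive differences, and neither was called. The RPS9 exon of 172 nt, shown above with its early stop, had a Ψ of 0.14 (0.07 to 0.23) in SSE mimetic cells and 0.02 (0.01 to 0.04) in scrambled cells, with a Bayes factor of 6.19 in the authors' deposited table. It had 8 inclusion and 11 skipping reads in SSE mimetic cells, against 4 and 60 in scrambled cells (Fisher's exact test, p = 0.000538, adjusted p = 0.0523). None of its 30-base windows occurred in another gene.

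A 245-nt exon of an RPS24 decay transcript, at chr10:78048981-78049225, had 0.21 (0.11 to 0.34) in SSE mimetic cells and 0.06 (0.04 to 0.10) in scrambled cells, with a Bayes factor of 6.35 in the authors' deposited table. It had 11 inclusion and 3 skipping reads in SSE mimetic cells, against 15 and 0 in scrambled cells. Its inclusion share thus ran the other way, at 0.786 in SSE mimetic cells and 1.0 in scrambled cells, a difference of -0.214. After the intron read density was subtracted the recomputed difference in Ψ was 0.0178, and isoform-specific reads were no longer left in both groups. The small RPS24 exons printed above, which change the end of the protein, were kept at similar low levels. The 22-nt exon had 0.14 (0.08 to 0.20) in SSE mimetic cells and 0.12 (0.09 to 0.14) in scrambled cells, from 18 inclusion and 48 skipping reads in SSE mimetic cells against 89 and 309 in scrambled cells. The 25-nt exon, 3 bases longer at its acceptor, had 0.02 in SSE mimetic cells and 0.01 in scrambled cells. The 18-nt exon had 0.01 in SSE mimetic cells and 0.00 in scrambled cells, with no inclusion read in either.

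Exons of annotated decay transcripts were tested in 20 genes (23 exons) and none was called. Of these, 13 had a Ψ of at most 0.15 and a skipping read in both groups. The inclusion share of their isoform-specific reads was larger in SSE mimetic cells for 8 exons and smaller for 2, and 3 had no inclusion read in either group. The same was not counted for decay exons of all genes. In total they had 40 inclusion and 1683 skipping reads in SSE mimetic cells, against 74 and 19321 in scrambled cells.

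RPL35, which lines the exit of the large subunit, had a Ψ of 0.00 in both groups for its 262-nt decay exon. Its inclusion share was 4.32% (95% exact binomial interval 1.89 to 8.34) in SSE mimetic cells and 0.847% (0.532 to 1.28) in scrambled cells (Fisher's exact test, adjusted p = 0.0523). With the intron read density subtracted, its recomputed Ψ was 0.000661 in SSE mimetic cells and 0.0005 in scrambled cells. RPS2, near the messenger RNA entry, had a Ψ of 0.04 in SSE mimetic cells and 0.01 in scrambled cells for its 187-nt exon, with inclusion shares of 10.6% (5.61 to 17.8) in SSE mimetic cells and 3.08% (1.89 to 4.72) in scrambled cells (Fisher's exact test, adjusted p = 0.0754). RPL26, beside the exit tunnel, had a Ψ of 0.01 in SSE mimetic cells and 0.00 in scrambled cells for its 117-nt exon, with inclusion shares of 1.55% (0.322 to 4.48) in SSE mimetic cells and 0.0929% (0.0113 to 0.335) in scrambled cells (Fisher's exact test, adjusted p = 0.198). Its recomputed difference in Ψ was 0.0019 after the subtraction. Intervals of the groups were apart for RPL35, RPS2 and RPS9 alone among the 13. This was not counted over all tested exons, so whether it is unusual cannot be told. The intervals cover counting error only, since reads counted without molecular identifiers can repeat a molecule.

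Over all 36 rarely kept ribosomal exons of that kind, 16 (44.4%) had a larger share in SSE mimetic cells, 8 a smaller one and 12 no inclusion read in either group. Over all 866 tested exons chosen in the same way 401 (46.3%) had a larger one, so the ribosomal share lies near that background. Reads that fit neither isoform, which include unspliced RNA, made up 76.2% of the reads of the tested ribosomal exons in SSE mimetic cells and 63.6% in scrambled cells. When RPS29 was left out they made up 55.6% in SSE mimetic cells and 51.7% in scrambled cells. They were 86.8% in SSE mimetic cells and 72.6% in scrambled cells over all tested exons. For the RPS9 exon, the recomputed difference in Ψ was 0.112 from the reads as deposited, which passed the call, and 0.0191 after the read density of the flanking introns was subtracted, which did not.

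**Figure D4:**
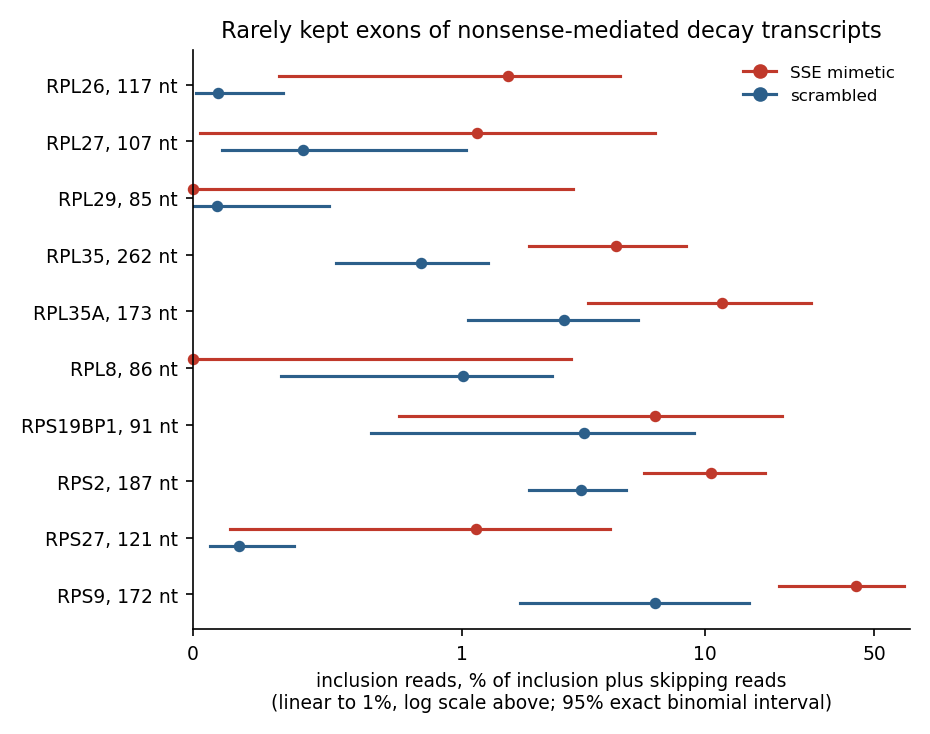
Inclusion reads as a percentage of inclusion plus skipping reads (horizontal axis, linear to 1% and logarithmic above) with exact 95% binomial intervals, for the 10 of the 13 rarely kept exons of decay transcripts with an inclusion read in either group, with SSE mimetic cells in red above the scrambled group in blue. RPL35, RPS2 and RPS9 have intervals that do not overlap, with 4.32%, 10.6% and 42.1% in SSE mimetic cells and 0.847%, 3.08% and 6.25% in scrambled cells.

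Other rarely kept exons had many skipping reads and values near 0 in both groups. The 46-nt exon of RPL36A had no inclusion read among 348 isoform-specific reads in SSE mimetic cells and none among 3007 in scrambled cells, where exact intervals reach 1.05% for SSE mimetic cells and 0.123% for scrambled cells. The 81-nt exon of RPS19, a gene mutated in Diamond-Blackfan anaemia, had none among 101 in SSE mimetic cells and none among 1129 in scrambled cells.

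The small-subunit genes RPS15A, RPS18 and RPS27 showed the same picture with a few inclusion reads. The 97-nt exon of RPS15A had 3 inclusion and 317 skipping reads in SSE mimetic cells, against 24 and 2943 in scrambled cells. The 74-nt exon of RPS15A had no inclusion read and 121 skipping reads in SSE mimetic cells, against none and 1137 in scrambled cells. The 158-nt exon of RPS18 had 13 and 487 in SSE mimetic cells, against 37 and 2602 in scrambled cells. The 121-nt exon of RPS27 had 2 and 173 in SSE mimetic cells, against 6 and 3467 in scrambled cells. None of these passed the test, and Ψ was at most 0.01 in both groups.

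In the large subunit, RPL29 (85 nt) and the 80-nt form of RPL35 also stayed at a Ψ of at most 0.01, and the 77-nt exon of RPL37 had 0.04 in SSE mimetic cells and 0.00 in scrambled cells. Coding exons with the most reads were kept completely. RPL6 (237 nt) had 1029 inclusion reads in SSE mimetic cells and 6747 in scrambled cells. RPL36A (123 nt) had 936 in SSE mimetic cells and 5834 in scrambled cells. RPL12 (99 nt), at the base of the stalk, had 676 in SSE mimetic cells and 5677 in scrambled cells. These had a Ψ of 1.00 in both groups, as did the 85-nt exon of RPL37, while the 170-nt exon of RPL27 had 0.99 in SSE mimetic cells and 1.00 in scrambled cells.

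Some large-subunit exons had lower Ψ in SSE mimetic cells without passing the Bayes factor threshold. RPL18 (87 nt) had 0.74 (0.50 to 0.99) in SSE mimetic cells and 0.98 (0.93 to 1.00) in scrambled cells. RPL13 (110 nt) had 0.74 (0.45 to 0.97) in SSE mimetic cells and 0.95 (0.84 to 0.99) in scrambled cells. RPL17 (94 nt) had 0.48 (0.27 to 0.69) in SSE mimetic cells and 0.68 (0.58 to 0.78) in scrambled cells. RPL4 (125 nt), which reaches into the exit tunnel, had 0.81 (0.52 to 0.98) in SSE mimetic cells and 0.99 (0.97 to 1.00) in scrambled cells. The intervals of the groups overlapped in all 4, which had 21 to 58 inclusion reads in SSE mimetic cells. RPL18, RPL13 and RPL4 had no skipping read in either group, so their lower Ψ rests on shared reads per inclusion read. RPL17 had 1 skipping read in SSE mimetic cells and 5 in scrambled cells.

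In the stalk, 9 exons of RPLP0 and RPLP1 were tested and none was called. RPLP0, the scaffold of the stalk, had 3 nested forms of 1 exon. The 186-nt form printed above had a Ψ of 0.94 (0.86 to 0.99) in SSE mimetic cells and 0.86 (0.83 to 0.89) in scrambled cells. Its counts were 296 inclusion and 0 skipping reads in SSE mimetic cells, against 2387 and 42 in scrambled cells (Fisher's exact test, p = 0.0117, adjusted p = 0.364). The same skipping reads, 0 in SSE mimetic cells and 42 in scrambled cells, enter the 78-nt and 217-nt forms, with unadjusted p of 0.045 and 0.0115 by Fisher's exact test, so the 3 forms are 1 observation. The 105-nt exon of RPLP0 was left out almost completely, with 295 skipping reads in SSE mimetic cells and 1665 in scrambled cells. The 1641-nt form of RPLP1, from a retained-intron transcript, had 0.99 in both groups, from 1321 inclusion reads in SSE mimetic cells and 8304 in scrambled cells. A 118-nt coding exon inside it had 1.00 in both, from 1144 inclusion reads in SSE mimetic cells and 7330 in scrambled cells. Reads within the coding exon can count for both forms, so 0.99 is not the fraction of transcripts that keep the intron.

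In the remainder, 6 exons of 5 genes were tested and none was called. RPS27L, a paralog of RPS27, had 0.06 (0.02 to 0.13) for its 187-nt untranslated exon in SSE mimetic cells and 0.01 (0.00 to 0.02) in scrambled cells. RPS19BP1, whose protein binds RPS19, had 0.06 in SSE mimetic cells and 0.02 in scrambled cells for a 91-nt exon. The read-through genes RPL17-C18orf32 (67 nt, 0.47 in SSE mimetic cells and 0.38 in scrambled cells) and RPS10-NUDT3 (111 nt, 0.79 in SSE mimetic cells and 0.92 in scrambled cells) overlapped between groups in their intervals.

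Exons of ribosomal protein genes had fewer reads in SSE mimetic cells, by a larger factor than tested exons as a whole; the difference between these factors was not tested. Ratios of reads are given as scrambled over SSE mimetic, so values above 1 mean fewer reads in SSE mimetic cells. They had 23455 isoform-specific reads in SSE mimetic cells and 172779 in scrambled cells, a ratio of 7.37, while all tested exons had 312336 in SSE mimetic cells and 1522604 in scrambled cells, a ratio of 4.87. Ribosomal exons thus made up 7.51% of the isoform-specific reads of tested exons in SSE mimetic cells and 11.3% in scrambled cells. The median ratio per exon was 6.53 (quartiles 4.8 and 8.76), against 3.79 (quartiles 2.23 and 5.9) over all tested exons, and 96 of 109 ribosomal exons lay above 3.79. Overlapping forms of 1 exon count separately here and below: 59 of the 109 exons lay in 22 loci with more than 1 tested form. Some reads thus enter the ribosomal totals more than once, and the exons are not independent. How often this happened over all tested exons was not counted. These ratios have no replicate check, and in bulk RNA fewer cells, less RNA per cell and a smaller library cannot be told apart.

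The minimum of 10 reads in each group limits the ratio of exons with few reads, so exons above a higher minimum were also compared; their depths above it were not matched. With at least 100 isoform-specific reads in SSE mimetic cells, the median ratio was 6.41 over 61 ribosomal exons and 4.4 over 420 other exons. With at least 200, it was 6.35 over 42 ribosomal exons and 4.51 over 154 other exons. By subunit, the median ratio was 5.49 for the small subunit, 8.25 for the large subunit, 7.99 for the stalk and 5.39 for the remainder. The highest ratio was 31.2, for the 38-nt form of RPS3A, and the lowest 1.07, for the 245-nt exon of RPS24. Skipping reads had a ratio of 9.55 in ribosomal exons (3754 in SSE mimetic cells and 35867 in scrambled cells) and 6.65 over all tested exons, inclusion reads 6.95 in ribosomal exons and 4.66 over all, and reads that matched neither isoform 3.48 in ribosomal exons and 1.89 over all. The single RPS29 event held 99078 of the ribosomal reads that matched neither isoform in SSE mimetic cells and 219468 in scrambled cells, and its span holds RN7SL1, the RNA of the signal recognition particle.

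**Figure D5:**
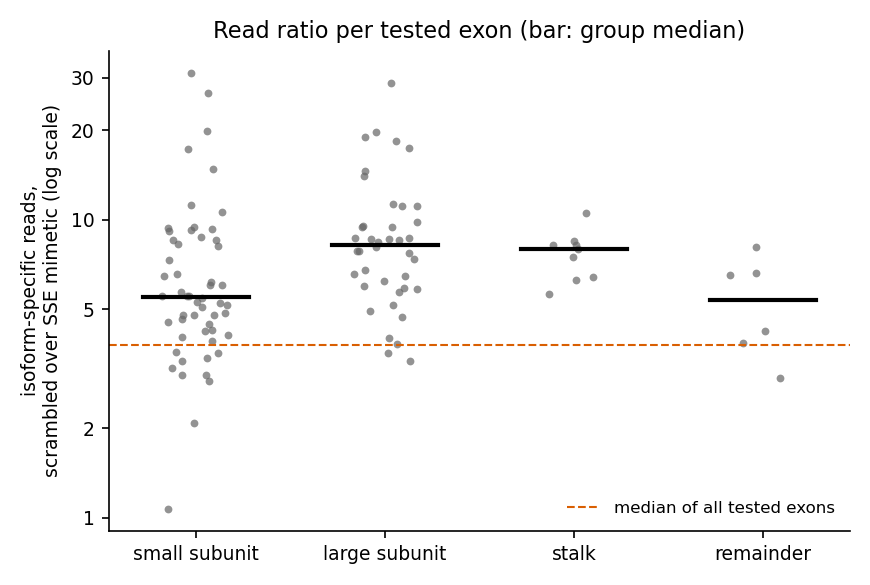
Isoform-specific reads in scrambled cells over those in SSE mimetic cells (vertical axis, log scale) for each tested exon, by subunit; the black bar is the median of the subunit and the dashed line the median of all tested exons, 3.79. All 9 stalk exons and 38 of 40 large-subunit exons lie above the dashed line.

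Related gene lists were described in the same way, by their counts and medians, to be read against the 3.1% called higher and 0.887% called lower over all tested exons. Of 58 exons of elongation factors and other genes with a terminal oligopyrimidine start, 2 were called higher and 1 lower. NACA and BTF3 encode the subunits of the nascent polypeptide-associated complex, which binds new chains at the ribosome. A 336-nt exon of NACA had 0.72 (0.39 to 0.96) in SSE mimetic cells and 0.14 (0.07 to 0.24) in scrambled cells, and a 114-nt exon of BTF3 had 0.48 (0.37 to 0.60) in SSE mimetic cells and 0.99 (0.97 to 1.00) in scrambled cells. Neither exon had a skipping read in either group, so both calls rest on shared reads per inclusion read. NACA had 13 inclusion and 2 shared reads in SSE mimetic cells, against 16 and 27 in scrambled cells. EIF3E, an initiation factor subunit, had 0.38 (0.19 to 0.65) in SSE mimetic cells and 0.08 (0.06 to 0.11) in scrambled cells. It had 12 inclusion and 5 skipping reads in SSE mimetic cells, against 66 and 180 in scrambled cells (Fisher's exact test, adjusted p = 0.0429).

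Of 75 exons of ribosome assembly factors, 2 were called higher. PNO1, needed for small-subunit maturation, had 0.78 (0.53 to 0.95) in SSE mimetic cells and 0.22 (0.13 to 0.32) in scrambled cells for a 148-nt exon, and UBTF, a factor of RNA polymerase I, had 0.61 (0.40 to 0.85) in SSE mimetic cells and 0.24 (0.18 to 0.31) in scrambled cells for a 383-nt exon. By Fisher's exact test the adjusted p was 0.0771 for PNO1 and 0.0431 for UBTF. Of 67 exons of small nucleolar RNA host genes, 3 were called lower. TAF1D had 0.55 (0.30 to 0.84) in SSE mimetic cells and 0.99 (0.95 to 1.00) in scrambled cells. HSPA9, the mitochondrial HSP70, had 0.25 (0.15 to 0.37) in SSE mimetic cells and 0.69 (0.58 to 0.79) in scrambled cells. HSPA8, the constitutive cytosolic chaperone, had 0.40 (0.29 to 0.52) in SSE mimetic cells and 0.60 (0.54 to 0.66) in scrambled cells. None of these 3 host-gene exons had a skipping read in either group, so their calls rest on shared reads per inclusion read. The median differences of the 3 lists were 0.01 for the elongation factors and other genes of that start, -0.07 for the assembly factors and -0.03 for the host genes.

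The 13 exons that were not tested lay in 11 genes. An RPL17 exon of 98 nt, untranslated, had 0.64 (0.33 to 0.90) in SSE mimetic cells and 0.19 (0.13 to 0.25) in scrambled cells, from 7 isoform-specific reads in SSE mimetic cells and 95 in scrambled cells. Its 88-nt form had 0.64 in SSE mimetic cells and 0.17 in scrambled cells from the same skipping reads. RPL36 (155 nt) had 0.58 (0.17 to 0.89) in SSE mimetic cells and 0.11 (0.01 to 0.51) in scrambled cells with no isoform-specific read in either group, so its values rest on shared reads alone.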

How the data were processed

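RNA-seq of 2 SSE mimetic and 2 scrambled samples was deposited as cassette-exon summaries, 1 per group, and 1 comparison. Reads were aligned with STAR 2.7 to hg38, per the submitters' processing notes; the MISO layout is per the file headers, while its version, event set and pooling are not stated there. The authors deposited Ψ as a fraction, the difference as a score (SSE mimetic minus scrambled), the Bayes factor as a ratio, and read numbers as text. Depth was a median of 128 isoform-specific reads per tested ribosomal exon in SSE mimetic cells and 837 in scrambled cells; the median credible interval was 0.06 wide in SSE mimetic cells and 0.01 in scrambled cells.

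Events were matched to GENCODE release 29 and reduced to 1 per skipped exon, then called as the report states. Fisher's exact tests (scipy 1.17.1, Python 3.11.15, pandas 2.3.3, numpy 2.4.6) were adjusted over the 8228 tested exons. Ψ and Bayes factors were also recomputed with a 2-isoform likelihood (read length 76 nt), tested on simulated data. Named exons were the called ones, up to 8 with the largest and 8 with the smallest difference, 8 with the most reads, and up to 12 with skipping reads in both groups. RPS9, RPS24 and RPLP0 forms, decay exons and depth classes were further described after their values were seen, as were the untested exons. The members and lists were chosen with earlier results of these data known. Some items that these rules select are not reported here.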

Additional observations from a re-analysis of the deposited data

How the results depend on the processing

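No exon was called higher and 4 were called lower in the main reading. Of the alternatives, 2 gave another count of higher calls: 2 with no read minimum (both RPL17, with 7 isoform-specific reads in SSE mimetic cells), where 1.1% of all exons were called higher, and 1 with the recomputed 2-isoform likelihood (RPS9 172 nt, difference 0.112, Bayes factor 17.6), where 3.89% were. The RPS9 difference was 0.0191 after the read density of the flanking introns was subtracted. The count of lower calls was 0 when the inclusion share replaced Ψ and 0 when Fisher's exact test replaced the Bayes factor, where 0.0729% and 0.0% of all exons were called lower. RPL9 205 nt and both RPS3 forms have no skipping read, so neither the share nor the test could differ for them. The lower calls numbered 3 or 4 under the other alternatives, where 0.413% to 1.15% of all exons were called lower: RPL9 205 nt had no isoform-specific read left in SSE mimetic cells after subtraction, and RPS3 143 nt was under both stricter thresholds and had a difference of -0.175 with a Bayes factor of 5.98 when scrambled reads were scaled down. The median difference stayed between -0.01 and 0.0. No paired analysis was possible because each group is deposited as 1 summary with no replicate number, and no replicate could be left out. Depth in SSE mimetic cells limits the differences that could be seen.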
